A study of Mus musculus with 2148 samples.

Results

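The genes described here are 6 that mark microfold cells (M cells) in the gut epithelium, Spib, Sox8, Gp2, Tnfaip2, Ccl9 and Pglyrp1, out of 48437 genes counted in single thymic epithelial cells (TECs). They were taken by symbol, matched through their Ensembl identifiers, and all 6 were found and passed the filter on low counts. Expression was measured by RamDA-seq, a full-length total RNA method for single cells, in thymic cells of C57BL/6 mice. Cells were depleted of CD45+ cells and sorted into plates in 3 gates. The mTEChi gate (DAPI-CD45-EpCAM+Ly51-MHCII-high) and the mTEClo gate (the same with low MHCII) take medullary TECs, and the cTEC gate (DAPI-CD45-EpCAM+Ly51+) takes cortical TECs. The 8 groups were wild-type (WT) adult mTEChi (620 cells, 31.3% of all, from males of 4, 5 and 6 weeks and females of 4 weeks), WT adult mTEClo (18% of all cells, males of 4, 5 and 8 weeks), Aire-deficient (Aire-KO) adult mTEChi (17.1%) and mTEClo (7.78%) from 5-week males, WT newborn mTEChi (8.64%), mTEClo (6.26%) and cTEC (7.02%) from 1-day-old pups of unrecorded sex, and WT adult cTEC (77 cells, 3.89%, 6-week males). The labels do not name the Aire allele. The labels number no mice, so cells of a group with the same age and sex were summed as 1 mouse pool, which gave 4 pools of WT adult mTEChi, 3 of WT adult mTEClo and 1 of each other group.

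M cells sit in the epithelium over lymphoid follicles such as Peyer's patches and carry particles from the gut lumen to the immune cells below. They arise when RANK ligand from the underlying stroma engages RANK on epithelial cells and activates NF-kappaB, after which the transcription factors Spib and Sox8 drive their maturation. Gp2 is a surface receptor that binds bacteria, Tnfaip2 (also called M-Sec) shapes membrane protrusions, Ccl9 is a chemokine that attracts myeloid cells and Pglyrp1 binds bacterial peptidoglycan. In the thymic medulla, TECs that resemble M cells and other peripheral cell types are called mimetic cells, and Spib is also a RANK-induced factor of mTECs more widely.

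On the GRCm38 build, Spib (ENSMUSG00000008193) lies at chr7:44525993-44532071 on the minus strand, Gp2 (ENSMUSG00000030954) at chr7:119442537-119459285 on the minus strand and Pglyrp1 (ENSMUSG00000030413) at chr7:18871331-18890459 on the plus strand. Sox8 (ENSMUSG00000024176) lies at chr17:25565892-25570686 on the minus strand, Tnfaip2 (ENSMUSG00000021281) at chr12:111442469-111455018 on the plus strand and Ccl9 (ENSMUSG00000019122) at chr11:83572919-83578636 on the minus strand. All 6 are protein-coding. Reads were counted without strand, so reads of an antisense gene cannot be told from those of its partner. Sox8 shares 10.6% of its exonic bases with the antisense gene 2810468N07Rik, Tnfaip2 shares 6.30% with Gm40578, and the other members share none.

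The 250 bases before the RefSeq start of a member (GRCm38.p6) are printed for Spib, because its window lies between it and Pold1, the gene most like it across cells below, and for Gp2, Ccl9 and Pglyrp1, because they held a searched motif. Capitals mark a match, on either strand, to GAGGAA (a core that ETS factors such as Spib bind), ACAAAG or ACAATG (cores for SOX factors), the NF-kappaB site or TATAAA (the TATA box).
Spib, chr7:44532072-44532321, minus strand: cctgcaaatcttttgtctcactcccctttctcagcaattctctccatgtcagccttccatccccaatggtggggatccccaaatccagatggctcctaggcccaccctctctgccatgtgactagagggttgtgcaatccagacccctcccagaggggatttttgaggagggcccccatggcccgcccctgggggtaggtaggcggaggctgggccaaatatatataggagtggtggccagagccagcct
Gp2, chr7:119459273-119459522, minus strand: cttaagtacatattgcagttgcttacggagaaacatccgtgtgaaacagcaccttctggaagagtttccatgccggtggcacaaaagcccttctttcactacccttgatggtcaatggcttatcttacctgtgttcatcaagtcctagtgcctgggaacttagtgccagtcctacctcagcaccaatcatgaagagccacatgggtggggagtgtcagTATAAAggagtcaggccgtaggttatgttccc
Ccl9, chr11:83578637-83578886, minus strand: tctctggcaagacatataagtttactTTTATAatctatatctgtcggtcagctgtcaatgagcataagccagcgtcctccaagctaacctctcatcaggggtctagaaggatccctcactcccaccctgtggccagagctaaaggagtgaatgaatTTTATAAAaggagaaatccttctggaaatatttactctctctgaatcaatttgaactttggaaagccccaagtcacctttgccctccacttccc
Pglyrp1, chr7:18884440-18884689, plus strand: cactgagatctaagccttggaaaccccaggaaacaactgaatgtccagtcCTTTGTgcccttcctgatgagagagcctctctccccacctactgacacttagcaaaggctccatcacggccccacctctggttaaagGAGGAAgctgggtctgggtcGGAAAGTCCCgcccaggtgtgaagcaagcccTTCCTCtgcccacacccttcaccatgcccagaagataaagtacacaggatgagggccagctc
The Gp2 window held TATAAA from 32 to 27 bases before the start, and the Ccl9 window held 3 matches to TATAAA, a pair of which overlap. The Pglyrp1 window, which lies inside the longer gene span given above, held 2 matches to GAGGAA, 1 to ACAAAG and 1 to the NF-kappaB site. No searched motif was found in the windows of Spib, Sox8 and Tnfaip2. Among 27025 mouse promoters of the same length, 23.1% held GAGGAA, 16.5% ACAAAG, 11.0% ACAATG, 13.0% TATAAA and 0.337% the NF-kappaB site. A match is a description of the letters and says nothing of binding.

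The cells held a median of 692880 reads (203010 to 1823784) and 12982.5 genes. Aire, the gene removed in Aire-KO mice, had 1193.3 CPM (reads scaled to a total of 1000000) over the cells of WT adult mTEChi, 26.1 in Aire-KO mTEChi, 35.4 in WT adult mTEClo and 0.153 in Aire-KO mTEClo. In Aire-KO mTEChi, 19 cells (5.62%) still reached 100 CPM of Aire, which the deposited counts do not resolve into parts of the gene. H2-Aa, an MHCII gene, had 1461.9 CPM in WT adult mTEChi and 636.9 in WT adult mTEClo, and Enpep, which encodes the Ly51 antigen of the cTEC gate, had 392.8 and 185.6 CPM in adult and newborn cTEC against 2.51 to 59.1 in the mTEC groups. Of the cells labelled male, 21 had more Xist than Y-linked reads, 11 of them in the 8-week mTEClo pool, so fitted differences of WT adult mTEClo and its share of cells with each member are also given without it. No experimental batch held cells of both genotypes, and the only WT mTEChi pool of the age and sex of the Aire-KO mice had 12 cells, so genotype and batch cannot be told apart.

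Spib was the member with the highest level per length of transcript in every pool but 1. In WT adult mTEChi it reached 114.4 to 187.7 CPM per kilobase of exon (RPKM), against 16.6 to 36.6 for Tnfaip2, 22.9 to 64.7 for Pglyrp1, 10.3 to 19.2 for Gp2, 1.23 to 22.7 for Ccl9 and 1.98 to 12.4 for Sox8. The exception was adult cTEC, where Gp2 had 94.0 RPKM and Spib 49.5. Levels that follow are CPM of summed reads, each compared within 1 gene only, and differences are log2 fold changes from edgeR's quasi-likelihood test on the 11 mTEC pools, with Benjamini-Hochberg adjustment over 39971 genes. Calls needed an adjusted p below 0.05 together with a change of 2-fold or more. The labels say only that pools differ in age or sex, so p-values measure the spread between pools. In sums of sorted cells, fewer cells with a gene and less RNA per cell cannot be told apart, so shares of cells are given after the levels.

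**Figure D1:**
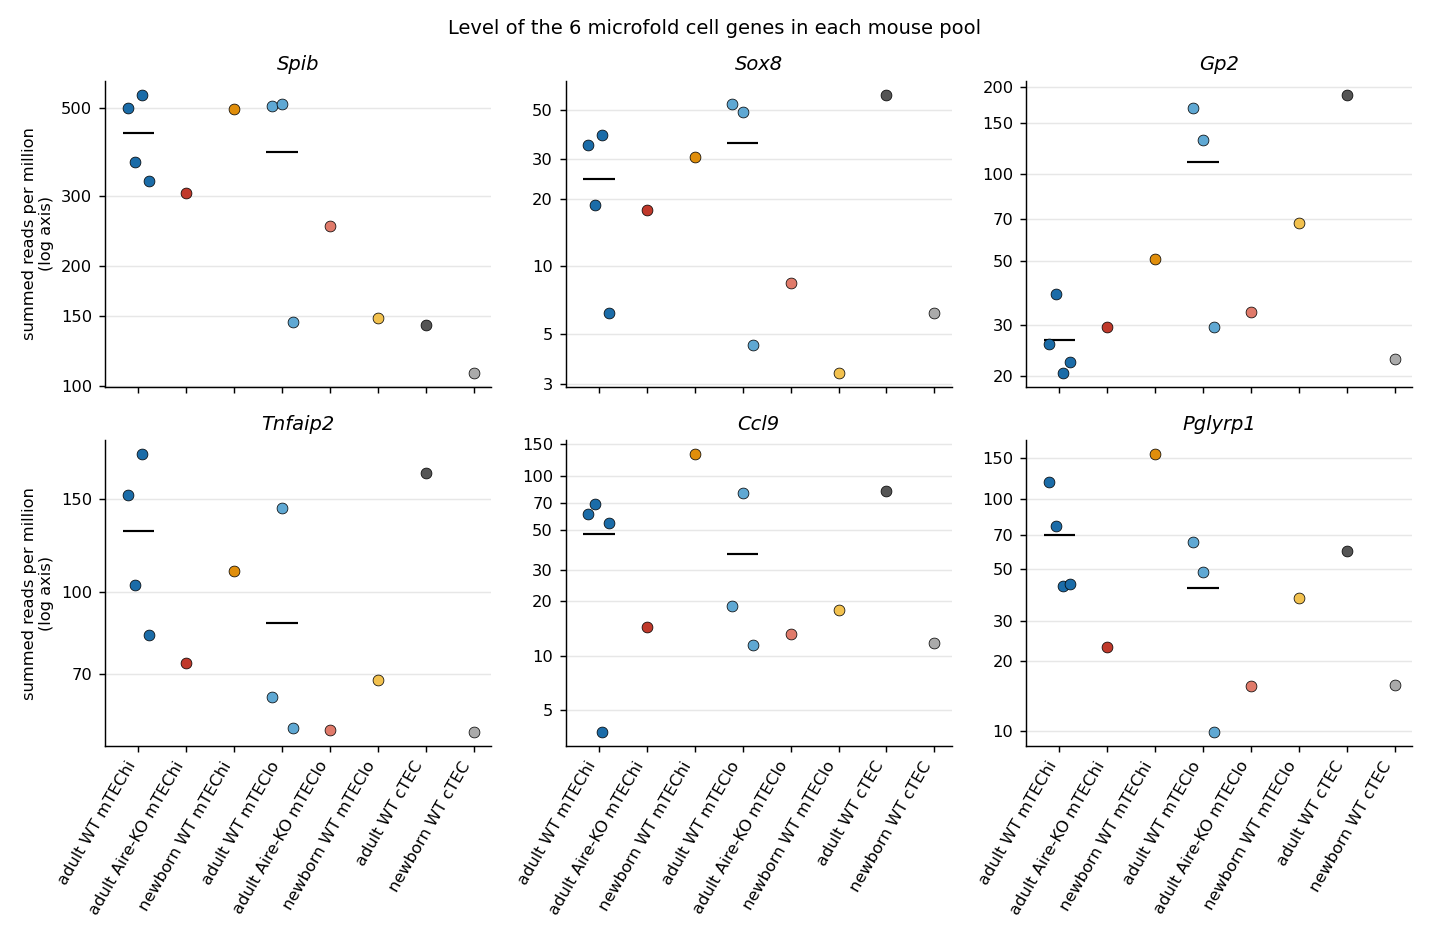
Level of each gene in CPM (log axis, with its own range per panel) in every mouse pool, 1 point per pool, with a bar at the mean of the groups that have several pools. Spib ranges from 107.99 to 538.3, and the 8-week mTEClo pool is the lowest of the 3 WT adult mTEClo pools for all 6 genes.

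Spib, the ETS factor needed for M cell maturation, was present in all groups. Its levels in WT adult mTEChi were 498.9 CPM in the 4-week female pool, 366.05 in the 4-week males, 538.3 in the 5-week males and 328.002 in the 6-week males (432.8 ± 101.5, SD, n = 4 pools). WT adult mTEClo had 506.2, 510.5 and 144.5 CPM at 4, 5 and 8 weeks. The 4- and 5-week mTEClo pools thus lay inside the range of mTEChi and the 8-week pool below it. Aire-KO mTEChi had 305.4 CPM, just below all 4 WT pools, and Aire-KO mTEClo 252.8. Newborns had 497.3 CPM in mTEChi and 148.4 in mTEClo, and cTEC had 141.96 in adults and 107.99 in newborns, the lowest of any pool.

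Sox8, the SOX factor of M cells, was far less abundant and more uneven. WT adult mTEChi pools had 34.9, 18.7, 38.5 and 6.18 CPM in the order above (24.6 ± 15, SD, n = 4), and WT adult mTEClo pools 53.2, 48.8 and 4.48 at 4, 5 and 8 weeks. The other mTEC pools had 17.9 in Aire-KO mTEChi, 8.46 in Aire-KO mTEClo, 30.6 in newborn mTEChi and 3.35 in newborn mTEClo. Adult cTEC had 58.2 CPM, the highest pool, and newborn cTEC 6.20. A few cells carried much of this signal, since the cell with the most Sox8 gave 9.29% to 60.7% of a pool's reads.

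Gp2, the bacterial receptor, was higher in 2 of the 3 WT adult mTEClo pools than in any mTEChi pool. It had 25.8, 38.3, 20.5 and 22.3 CPM in mTEChi (26.7 ± 8.02, SD, n = 4) and 169.3, 131.2 and 29.5 in mTEClo (109.98 ± 72.2, SD, n = 3), so that only the 8-week mTEClo pool fell in the mTEChi range. Aire-KO mTEChi had 29.5 CPM and Aire-KO mTEClo 33.4. Newborn mTEChi had 50.6 and newborn mTEClo 67.9, and the highest pool was again adult cTEC with 187.9, against 22.8 in newborn cTEC. The top cell gave 17.5% to 64% of a pool's Gp2 reads.

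Tnfaip2, the membrane protein M-Sec, varied less between groups. WT adult mTEChi pools had 152.9, 102.8, 182.2 and 82.9 CPM (130.2 ± 45.5, SD, n = 4) and mTEClo pools 63.1, 143.9 and 55.1, which overlap. Aire-KO pools had 73.3 in mTEChi and 54.6 in mTEClo, newborn pools 109.3, 68.1 and 54.2 in mTEChi, mTEClo and cTEC, and adult cTEC 167.9.

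Ccl9, the chemokine, was lowest in the smallest pool. WT adult mTEChi pools had 61.4, 69.1, 3.75 and 54.5 CPM (47.2 ± 29.6, SD, n = 4), the 3.75 being that of the 12 cells of 5-week males. Aire-KO mTEChi had 14.5 CPM, between that pool and the other 3, and newborn mTEChi had 131.3, above all adult pools. In mTEClo the pools had 18.9, 79.8 and 11.4 in WT adults, 13.2 in Aire-KO and 17.8 in newborns. Adult cTEC had 82.3 and newborn cTEC 11.7.

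Pglyrp1, the peptidoglycan-binding protein, had 118.9, 76.9, 42.1 and 42.9 CPM in the WT adult mTEChi pools (70.2 ± 36.3, SD, n = 4). Aire-KO mTEChi, with 23, lay below all of them, and newborn mTEChi, with 155.7, above all of them. WT adult mTEClo had 65.5, 48.7 and 9.92 CPM, Aire-KO mTEClo 15.7, newborn mTEClo 37.6, adult cTEC 59.8 and newborn cTEC 15.8. The Aire-KO and newborn values are of 1 pool each, and 1 of the 4 WT adult mTEChi pools had 12 cells.

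Whether the loss of Aire changed these genes was tested first in mTEChi. No member was called, where 0% of the genes tested were called. Log2 differences of Aire-KO from WT were -0.38 (SE 0.57, adjusted p = 0.986) for Spib, -0.33 (SE 1.2) for Sox8, 0.27 (SE 0.69) for Gp2, -0.71 (SE 0.59) for Tnfaip2, -1.58 (SE 1.46, adjusted p = 0.961) for Ccl9 and -1.50 (SE 0.95, adjusted p = 0.925) for Pglyrp1. Their median was -0.54, against -0.16 over all genes. Before adjustment, edgeR gave p below 0.05 to 1.18% of genes higher and 3.19% lower in Aire-KO, none of them a member, and DESeq2 called 2.25% of the genes it tested, no member among them. With the experimental batches as units in place of pools, 4.63% of genes were called and still no member, the nearest being Pglyrp1 with -1.58 (SE 0.66, p = 0.0235, adjusted p = 0.131, edgeR). Batches of 1 pool may share mice, so that p may be too small.

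In mTEClo no member was called either, with 0% of genes called. All 6 values were below 0, from -0.55 (SE 0.59) for Spib to -1.65 (SE 0.81) for Gp2 and -1.99 (SE 1.38) for Sox8, each with an adjusted p of 1, and their median was -1.37 against 0 over all genes. Unadjusted p-values below 0.05 were found by edgeR for 2.14% of genes higher and 1.41% lower, none a member, and DESeq2 called 0.810%, no member among them. The WT values of these differences rest on pools of 4, 5 and 8 weeks that differ widely, from 4.48 to 53.2 CPM for Sox8, and the Aire-KO pool lay between the 8-week pool and the others for 5 of the 6 genes, all but Tnfaip2. Without the 8-week pool the 6 values ran from -0.83 for Tnfaip2 to -2.51 for Sox8, with -0.92 for Spib and -2.08 (adjusted p = 0.212, edgeR) for Gp2, and none was called. The difference between the Aire effects in both gates was tested as an interaction. It called 0% of genes and no member, with the widest values for Gp2 (1.91, SE 1.03) and Sox8 (1.65, SE 1.71), both at an adjusted p of 1. Without the 8-week pool these were 2.34 (adjusted p = 0.488, edgeR) and 2.17, again not called. By edgeR 1.23% of genes were higher and 2.2% lower before adjustment (p below 0.05), and DESeq2 called 0.570%, again without a member.

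Between the gates of WT adults, which shared no experimental batch, 11.7% of genes were called, 7.54% higher in mTEChi and 4.13% lower, and 1 of the 6 members. Gp2 was lower in mTEChi, with a log2 difference of -2.18 (SE 0.49, adjusted p = 0.0262). That call did not hold in 5 of the 7 fits that left out 1 pool, where the difference ranged from -2.62 to -1.75. The adjusted p was 0.0670, 0.0567 and 0.0739 without the mTEChi pool of 4-week females, 5-week males or 6-week males, and 0.0835 and 0.0811 without the 4- or 5-week mTEClo pool. Without the 8-week mTEClo pool the difference was -2.62 (adjusted p = 0.00234), and with batches as units -1.28 (adjusted p = 0.248). The other members had 0.01 (SE 0.38) for Spib, -0.66 (SE 0.80) for Sox8, 0.41 (SE 0.38) for Tnfaip2, 0.22 (SE 0.89) for Ccl9 and 0.63 (SE 0.59) for Pglyrp1, and the median of the 6 was 0.12 against 0.30 over all genes. Without the 8-week pool these 5 had -0.35, -1.18, 0.21, -0.18 and 0.18. Spib was also below 0 with cells at equal depth, with all 13 pools and with a block for age and sex (lowest -0.27).

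The RANK pathway, which induces M cells, did differ between these gates. Of 9 listed genes 6 were higher in mTEChi and none lower. These were Tnfrsf11a, which encodes RANK (1.17, SE 0.24, adjusted p = 0.0201), Tnfrsf11b, the decoy receptor osteoprotegerin (2.39, SE 0.52), Traf6, the adaptor of RANK (1.26, SE 0.16), Nfkb2 and Relb of the non-canonical NF-kappaB arm (1.56, SE 0.21, and 1.62, SE 0.28) and the related receptor Cd40 (3.76, SE 0.38). Of 14 other genes linked to M cells, 1 was higher, Marcksl1 (1.30, SE 0.21, adjusted p = 0.00976), and none lower. The most abundant of the rest had values of -0.30 (SE 0.22) for Anxa5, 0.79 (SE 0.19) for Prnp and -0.04 (SE 0.33) for Clu. Among the 7 closest paralogs of the members, Spic (2.69, SE 0.57) and Pglyrp2 (4.28, SE 0.37) were higher and Sox9 lower (-1.25, SE 0.23). In the 5 other comparisons no gene of these 3 lists was called.

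Markers of other cells also differed between the gates. All 4 mature mTEC markers were higher in mTEChi, from 1.32 for H2-Aa to 5.22 for Aire, and 4 of 5 tuft cell markers lower, from -4.18 for Dclk1 to -5.64 for Il25. Of 4 B cell markers 1 was higher (Pax5 3.06), of 5 T cell markers 2 (Cd4 3.49, Rag1 5.53) and of 9 myeloid markers 5 (Csf1r, Adgre1, Cd68, Lyz2 and Siglech, 1.66 to 8.96). Siglech was near the floor, at 0.668 CPM over the cells of WT adult mTEChi. The summed B cell markers stood at 75.8 to 128.8 CPM in the WT adult mTEChi pools and 5.26 to 77.2 in mTEClo, with Ms4a1 at 0 in the 5-week mTEChi and 4-week mTEClo pools. Summed T cell markers stood at 27.8 to 125.8 CPM in WT adult mTEChi and 2.37 to 35.8 in mTEClo, with Cd3e and Rag1 at 0 in the 4-week mTEClo pool. Enterocyte markers Hnf4g (1.9) and Apoa4 (3.66), Grhl3 of keratinocytes (1.82), Insm1 of neuroendocrine cells (1.75), Foxj1 of ciliated cells (1.9) and Foxn1 (1.88) were higher and Krt5 (-3.36) lower. No cTEC, endothelial or pancreatic acinar marker was called. The part of any of these cells in the members' values was not tested.

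Newborn mTEChi had the highest Ccl9 and Pglyrp1 of any pool, but no member was called against WT adults, with 0% of genes called. The log2 differences were 1.5 (SE 1.19) for Ccl9, 1.17 (SE 0.80) for Pglyrp1, 0.95 (SE 0.66) for Gp2, 0.35 (SE 1.15) for Sox8, 0.23 (SE 0.54) for Spib and -0.22 (SE 0.57) for Tnfaip2, all at an adjusted p of 1. In edgeR 1.51% of genes were higher and 0.503% lower with p below 0.05 before adjustment, and DESeq2 called 35 genes, no member among them. In newborn mTEClo, again with 0% of genes called, the values were -1.42 (SE 0.62, adjusted p = 0.506) for Spib, -3.42 (SE 1.52, adjusted p = 0.511) for Sox8, -1.07 (SE 1.44) for Ccl9, -0.72 (SE 0.76) for Gp2, -0.42 (SE 0.59) for Tnfaip2 and -0.16 (SE 0.89) for Pglyrp1. Without adjustment edgeR gave 5.62% of genes higher and 4.32% lower, and DESeq2 called 5.73%, no member among them. With batches as units 14.0% of genes were called, and Spib (-1.17, SE 0.34, adjusted p = 0.0164) and Sox8 (-2.90, SE 0.85, adjusted p = 0.0164, both edgeR) were lower in newborn mTEClo. All newborn batches are of 1 pool, and batches of 1 pool may share mice, so these p-values may be too small. The 8-week adult pool had 144.5 CPM of Spib and 4.48 of Sox8, beside 148.4 and 3.35 in newborns. Without it the edgeR values by pool were -1.79 (adjusted p = 0.0637) for Spib and -3.94 (adjusted p = 0.157) for Sox8 and -0.62 to -1.48 for the other 4, and no member was called.

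For shares, each cell was thinned to 200000 reads, and a cell held a gene at 2 reads or more (10 CPM). Shares carry exact binomial 95% intervals, which cover counting error only, and no test, since cells of 1 pool are not replicates. Spib was found in most mTECs. It was in 91.3% of WT adult mTEChi cells (88.8 to 93.4), 85.2% in Aire-KO, 95.9% in newborns, and in 83.2%, 74.7% and 55.6% of the same groups of mTEClo (82.9% in WT adults without the 8-week pool). In cTEC it was in 24.7% of adult cells (15.6 to 35.8) and 66.9% of newborn cells (58.4 to 74.6). The adult cTEC pool thus had a higher summed level than the newborn one from a smaller share of cells.

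**Figure D2:**
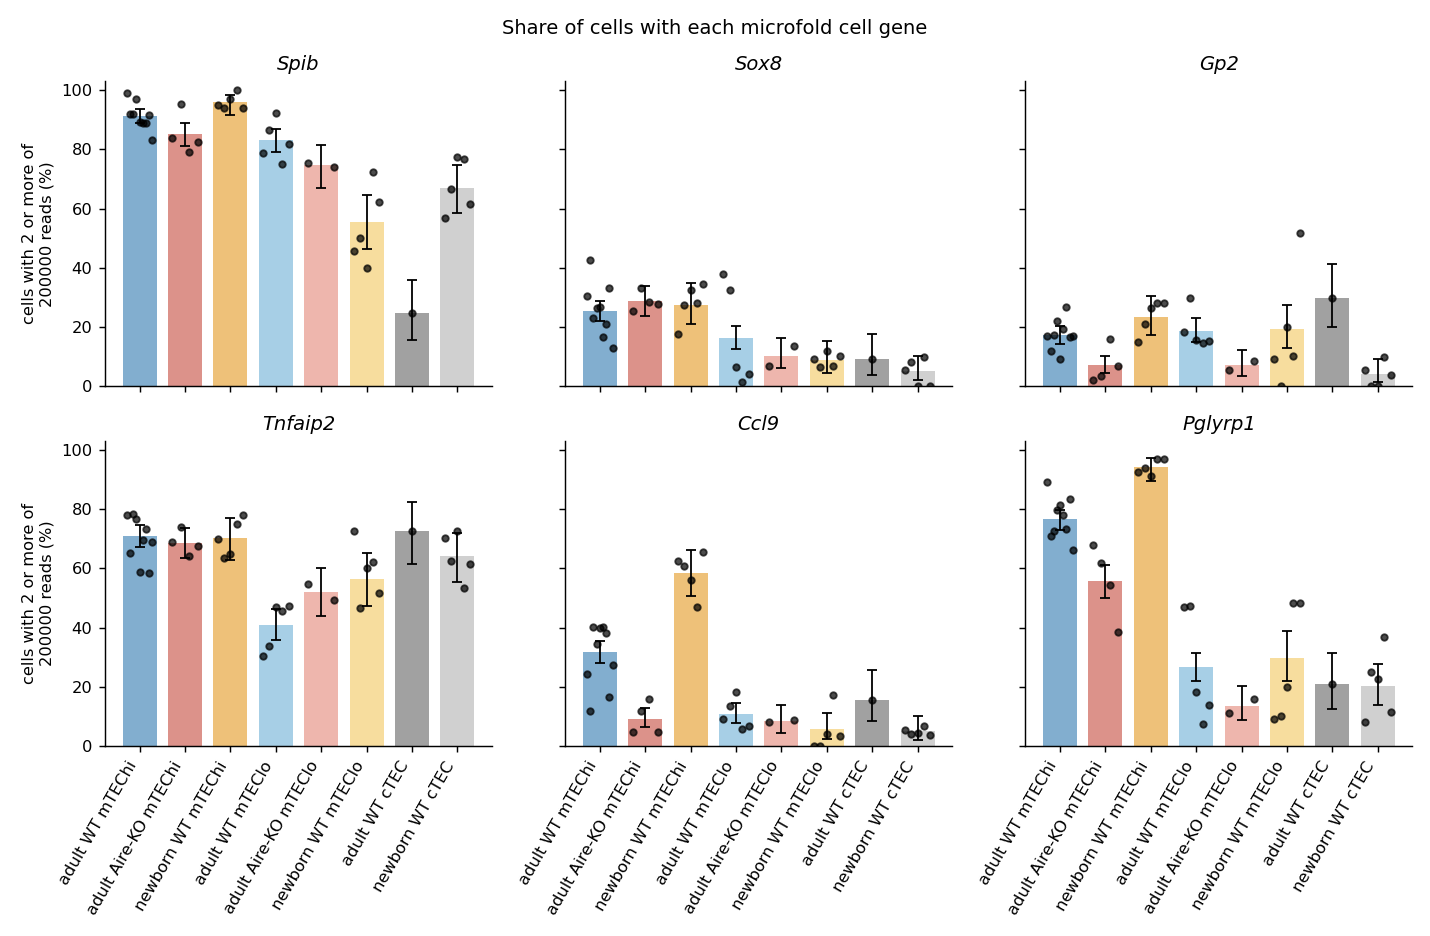
Share of cells with 2 or more reads of each gene after thinning to 200000 reads, by group, as bars with exact 95% binomial intervals, and in each experimental batch of 10 or more cells as points. Ccl9 is in 58.5% of newborn mTEChi cells, 31.8% of adult WT and 9.17% of Aire-KO mTEChi cells.

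The shares of Ccl9 and Pglyrp1 separated the 3 conditions of mTEChi most widely. Ccl9 was in 31.8% of WT adult cells (28.1 to 35.6), 9.17% of Aire-KO cells (6.32 to 12.8) and 58.5% of newborn cells (50.7 to 66). By experimental batch these were 12% to 40.3% over 9 WT batches, 4.60% to 16% over 4 Aire-KO batches and 46.9% to 65.6% over 5 newborn batches, so that WT and Aire-KO batches overlapped at their ends. Pglyrp1 was in 76.5% of WT adult cells, 55.6% of Aire-KO and 94.2% of newborn cells. Its batches ran from 66.2% to 89%, 38.4% to 67.8% and 91.2% to 96.9%, and again only the newborn batches stood apart. Median genes found per cell before thinning had the same order of conditions, at 12465 in Aire-KO, 13331.5 in WT adult and 13682 in newborn mTEChi. Whether the shares followed the number of genes found was not tested. In mTEClo, Ccl9 was in 10.9%, 8.44% and 5.65% of WT adult, Aire-KO and newborn cells and Pglyrp1 in 26.6%, 13.6% and 29.8%. Without the 8-week pool, WT adult mTEClo had Pglyrp1 in 47.1% of cells, above the newborn share in place of below it, and Ccl9 in 11.4%.

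Cells with few reads of a member before thinning were counted apart. Those with 1 to 4 reads of Ccl9 were 28.1% of WT adult mTEChi and 7.40% of Aire-KO mTEChi, and 23.4% to 33.1% of the other WT groups against 7.14% of Aire-KO mTEClo. The same low band was 20.5% and 8.88% for Gp2, 16.5% and 7.40% for Sox8 and 14.8% and 6.51% for Tnfaip2 in WT and Aire-KO mTEChi, but 11.3% and 10.9% for Pglyrp1. In mTEClo the low band of Pglyrp1 was 29.1% in WT adults and 16.9% in Aire-KO. At a higher threshold of 20 thinned reads (100 CPM, set after the data were seen), Ccl9 was in 11.3% of WT adult, 2.07% of Aire-KO and 26.9% of newborn mTEChi cells and Pglyrp1 in 18.2%, 3.85% and 46.2%. The order of the 3 conditions was therefore the same for both genes at both thresholds. In pools, Ccl9 at this threshold was in 8.54%, 12.6%, 0% and 8.54% of WT adult mTEChi cells, the 0% being 0 of 12 cells (0 to 26.5), so the pool matched to Aire-KO by age and sex did not exceed it.

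The other 3 members gave less even pictures. Sox8 was in 25.3% of WT adult, 28.7% of Aire-KO and 27.5% of newborn mTEChi cells, the only member with a higher share in Aire-KO than in WT adult mTEChi, and at 20 reads it was in 4.03%, 3.55% and 5.26%. In WT adult mTEClo it was in 37.9% of cells at 4 weeks, 32.4% at 5 weeks and 4.15% at 8 weeks, and in 35% without the 8-week pool. Gp2 was in 17.3%, 7.10% and 23.4% of the mTEChi cells and 18.8%, 7.14% and 19.4% of the mTEClo cells, although its summed level in mTEClo was higher at 4 and 5 weeks, and in 24.3% of WT adult mTEClo cells without the 8-week pool. Its share reached 29.9% in adult cTEC (20.0 to 41.4) and 4.32% in newborn cTEC. Tnfaip2 was in 71%, 68.6% and 70.2% of mTEChi cells, with overlapping batches, in 40.9% to 56.5% of mTEClo groups (32.1% in WT adults without the 8-week pool) and in 72.7% and 64% of adult and newborn cTEC. 

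Cells with several members were counted next. At least 4 of the 6 were in 35% of WT adult mTEChi cells (31.2 to 38.9), 17.5% of Aire-KO (13.6 to 21.9) and 57.9% of newborn mTEChi cells (50.1 to 65.4). In mTEClo the shares were 10.1%, 5.84% and 10.5% (16.7%, 16.2% and 5.99% in the WT adult pools of 4, 5 and 8 weeks), and in cTEC 11.7% in adults and 5.04% in newborns. WT adult mTEChi pools had 41.5%, 36.7%, 16.7% and 22% at 4 (female), 4 (male), 5 and 6 weeks, and Aire-KO batches 11.6% to 23.8%, so the Aire-KO share lay below 3 WT pools and above that of 5-week males, where 2 of 12 cells were counted. The share depends on the threshold, with 55.5% at 1 read and 16% at 5 reads in WT adult mTEChi. The order of the mTEChi conditions was also that of their median genes per cell, given above, and a link was not tested.

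**Figure D3:**
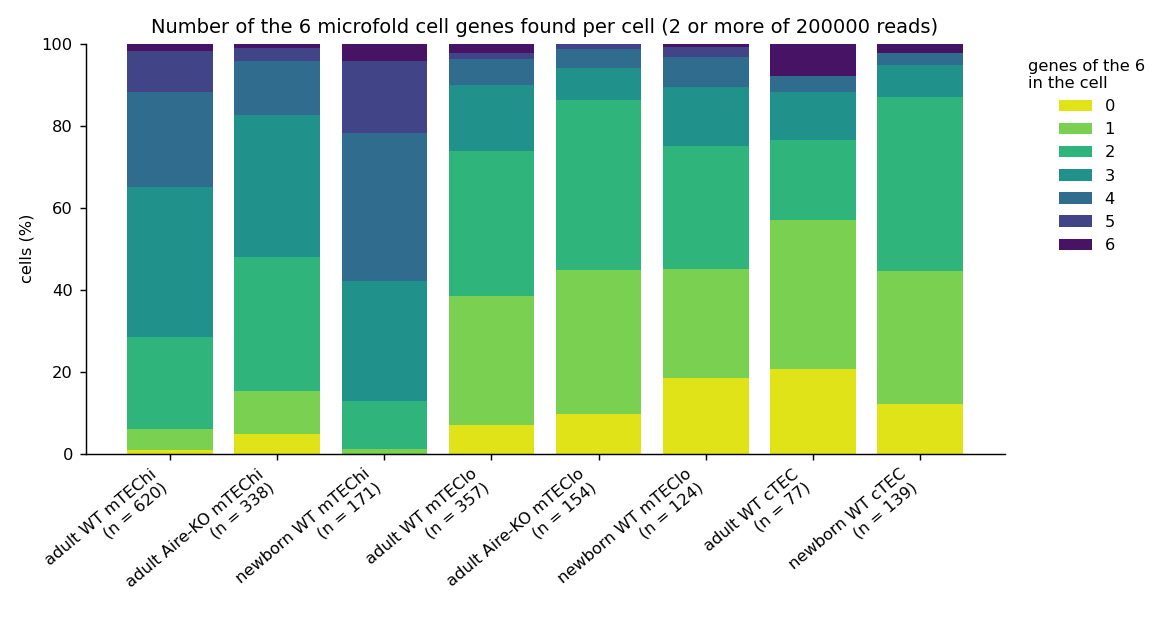
Number of the 6 genes found per cell, as a percentage of the cells of each group (stacked bars, 0 to 6 genes). Most mTEChi cells held 2 to 4 genes, and adult cTEC has the widest band of 6 genes with 7.79% of its cells.

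All 6 members together, a count chosen after the data were seen, were in 39 cells from 15 of 26 batches. They were 11 of 620 WT adult mTEChi cells (1.77%), 3 Aire-KO mTEChi (0.888%), 7 newborn mTEChi (4.09%), 8 WT adult mTEClo (2.24%), 0 Aire-KO mTEClo (0 to 2.37), 1 newborn mTEClo (0.806%), 6 of 77 adult cTEC (7.79%, 2.91 to 16.2) and 3 newborn cTEC cells (2.16%). These cells were not the deepest, with a median of 542430 reads and 12539 genes against 694032 and 12989 in the other cells. They held much of the reads of the rarer members, which follows in part from picking cells with all 6. In adult cTEC, the 6 cells held 98.8% of the Sox8 reads, 98% of Ccl9 and 79.4% of Spib, and without them Sox8 was at 0.738 CPM, Ccl9 at 1.74 and Spib at 31.1. In newborn cTEC, 3 cells held 88.5% of Sox8 and 82% of Gp2. In Aire-KO mTEChi, 3 cells held 55.1% of the Ccl9 reads and 37.6% of Gp2, and in WT adult mTEChi 11 cells held 38.3% of Gp2 and 28.2% of Sox8, but 8.62% of Pglyrp1 and 5.45% of Spib.

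**Figure D4:**
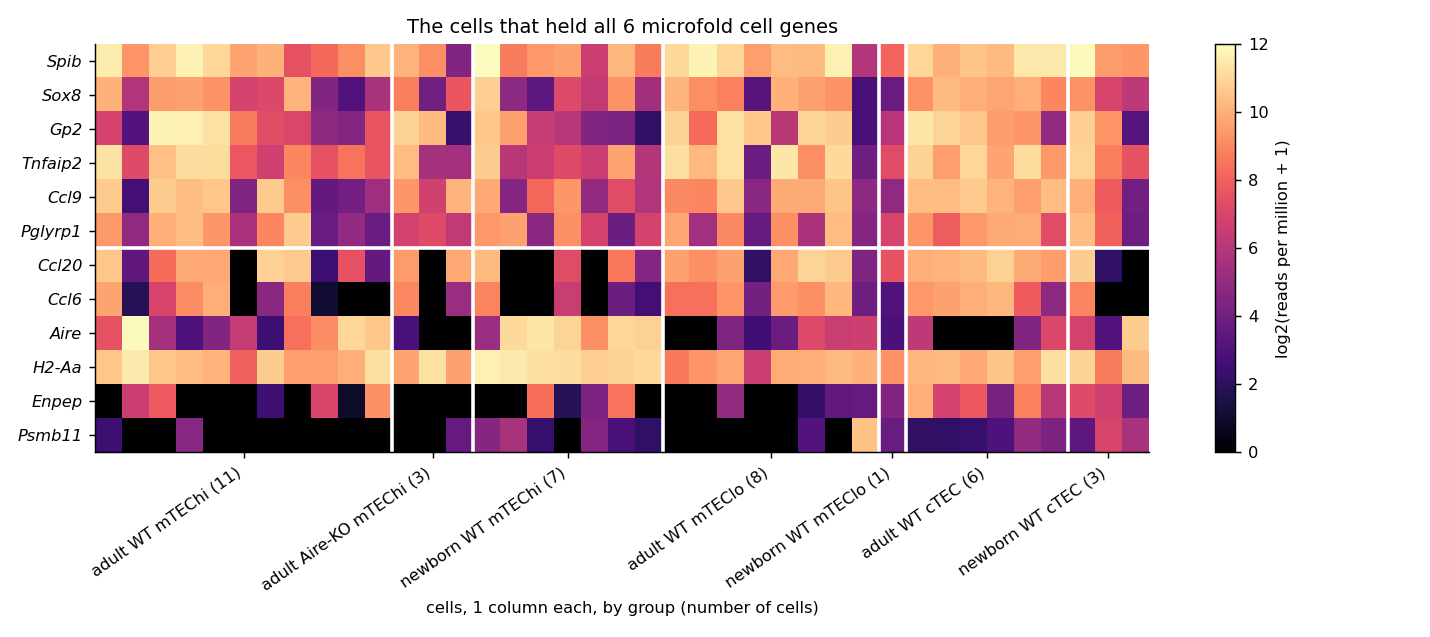
Level, as log2(CPM + 1) on the colour scale, of the 6 members (above the white line) and of Ccl20, Ccl6, Aire, H2-Aa, Enpep and Psmb11 in each of the 39 cells with all 6 members, 1 column per cell, by group. Cells with high levels of all 6 also show Ccl20 and Ccl6, and several mTEChi cells in which 1 or more members are low show high Aire.

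The 39 cells were of mixed kinds. In 17 of them, from 11 batches, all 6 members reached 20 thinned reads (100 CPM). These were 6 WT adult mTEChi, 3 WT adult mTEClo, 1 newborn mTEChi, 1 Aire-KO mTEChi, 5 adult cTEC and 1 newborn cTEC cell. Adult cTEC again had the highest share, 6.49% (2.14 to 14.5), against 0.968% (0.356 to 2.09) of WT adult mTEChi and 0.840% (0.174 to 2.44) of WT adult mTEClo. All adult cTEC cells came from 1 pool and 1 batch, and newborn cTEC had 0.719% (0.0182 to 3.94). The 1 Aire-KO mTEChi cell (0.296%, 0.00749 to 1.64) and 0 Aire-KO mTEClo cells (0 to 2.37) have intervals that overlap those of WT. In the 17 cells the median levels were 2053.6 CPM for Spib, 794.1 for Sox8, 1787.95 for Gp2, 1958.05 for Tnfaip2, 1344.5 for Ccl9 and 702.4 for Pglyrp1, and in the cells without all 6 they were 151.9, 0, 0, 21.7, 0 and 9.39. These member values follow from how the cells were picked.

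Genes other than the members took no part in that choice, and those named here were picked from the lists after their values were seen. Ccl20, the chemokine M cells and follicle epithelium use to draw lymphocytes, was in 17 of 17 cells (80.5% to 100.0%) at 320.8 to 1840.3 CPM, against 17.5% of the cells without all 6. Ccl6, a chemokine encoded beside Ccl9, was in 17 of 17 against 11.5%, with a median of 558.7 CPM. Msln, the surface protein mesothelin, was in 17 of 17 against 53.4%, at a median of 1484.2 CPM against 9.33, and Clu, encoding clusterin, had medians of 1648.04 and 127.4 CPM. H2-M2 (594.1 and 56.5), Cxcl16 (326.5 and 65.1), Anxa5 (942.3 and 353.8) and Esrrg (211.8 and 19.7) had higher medians too. Umod, which encodes a GP2-like protein, was in 9 of 17 against 2.58%. Atoh8, which restrains M cells, was in 0 of 17 against 26.8%.

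Some RANK signalling genes also had higher medians in these cells than in the cells without all 6. Gates were not matched in the contrasts of the 17 cells with the others. Tnfrsf11a had a median of 1020.6 CPM against 330.3 and Tnfrsf11b 1275.5 against 11.5, with the latter in 16 of 17 cells. Traf6 (352.4 and 150.9) and Map3k14 (215.7 and 114.9) were higher as well, while Nfkb2 (289.5 and 361.8) and Cd40 (26.2 and 65.7) were not. Tnfsf11, encoding RANK ligand, was in 0 of 17 cells. Among paralogs, Pglyrp2 was in 17 of 17 against 59.2%, and Sox9 had a lower median (16.7 against 167.8 CPM).

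Thymic epithelial markers were uneven in the 17 cells. Epcam was in 17 of 17 at a median of 715.2 CPM and Krt8 in 17 of 17 at 461.3. Krt5 was in 9 of 17 (52.9% against 67.2%), at a median of 10.3 against 21.1. Foxn1, the master factor of TECs, had a median of 8.51 CPM against 193.7, and Psmb11, the cTEC proteasome subunit, stayed at 0 to 30.5 CPM, also in the cells of the cTEC gate. Aire was at 0 to 339.1 CPM with a median of 21.8 against 25.9, and H2-Aa at a median of 1192.03 against 1206.96. The other mature mTEC markers, Cd80 (117.5 against 76.7 CPM) and Fezf2 (101.2 against 142.9), were each in 17 of 17. Enpep ranged from 0 to 1015.6 CPM. Of markers of enterocytes, Hnf4g (median 169.7 against 2.41 CPM) and Cdx1 (97.6 against 59.9) were in 17 of 17 cells. Apoa4 was in 14 (82.4% against 14.9%) and Hnf4a in 4 (23.5% against 4.53%). Of pancreatic acinar markers, Prss2 was in 9 (52.9% against 3.40%) and Ctrb1 in 5 (29.4% against 5.92%), but Cpa1 and Cela1 in 0. Of keratinocyte markers, Grhl3 was in 14 (82.4% against 47.1%), Krt10 in 4 (23.5% against 36.4%) and Ivl and Lor in 0. Blood cell markers ranged from absent to frequent. Pax5, Cd3e, Cd8a and Siglech were in 0 of 17, and the other 7 that are not named next were in 1 or 2. Lyz2 was in 13 (76.5% against 49.7% of cells without all 6), Cd68 in 10 (58.8% and 45.5%), Cd79b in 9 (52.9% and 36%), S100a8 in 6 (35.3% and 25.8%), Itgam in 5 (29.4% and 7.16%), Ptprc in 3 (17.6% and 9.33%) and Rag1 in 3 (17.6% and 13.4%). The presence of 2 cells in 1 well was not tested.

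The other cells with all 6 were more varied. Some had high Ccl20 and missed 100 CPM of 1 member only, such as a 4-week mTEClo cell with 589.4 CPM of Ccl20 and 42.7 of Pglyrp1. In WT adult mTEChi, 4-week batch 37 held a cell with 2038.5 CPM of Aire and 7.40 of Sox8, and batch 21 a cell with 3919.8 of Aire and 5.19 of Ccl9. In newborn mTEChi, 5 of the 7 cells with all 6 members had 1827.1 to 2627.8 CPM of Aire. In each of these Aire-high cells 1 to 4 of the members lay below 100 CPM while others were high, such as 1170.7 CPM of Spib and 624.1 of Sox8 in a newborn cell with 2037.5 of Aire.

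Across the cells of a group, the members were most closely correlated in adult cTEC. Pearson r of log2(CPM + 1) is given as a description, since cells of 1 pool are not replicates. Spib and Sox8 had r of 0.31 in WT adult mTEChi, 0.25 in Aire-KO, 0.37 in newborn mTEChi, 0.48 in WT adult mTEClo, 0.30 and 0.34 in Aire-KO and newborn mTEClo, 0.76 in adult cTEC and 0.35 in newborn cTEC. It was the strongest partner of Spib in 6 of the 8 groups. Values after centring each batch were close, at 0.30 in WT adult mTEChi and 0.41 in WT adult mTEClo. Of 40 correlations of Spib with another member, 36 were above 0. In adult cTEC all 15 pairs lay between 0.44 and 0.88, the highest being Sox8 with Ccl9, and the 6 cells described above held 53.4% to 98.8% of each member's reads there. The 15 pairs ran from 0.20 to 0.59 in newborn cTEC, from -0.11 to 0.56 in Aire-KO mTEClo (both highest for Sox8 with Pglyrp1) and from 0.05 to 0.31 in WT adult mTEChi. In WT adult mTEClo, Sox8 ran with Pglyrp1 (0.53) and Gp2 (0.51), and after centring each batch these were 0.43 and 0.49. Spib had r of 0.39 with Aire in WT adult mTEChi and 0.61 in newborn mTEChi, while Ccl9 had -0.16 and -0.01, so the members did not track Aire alike.

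**Figure D5:**
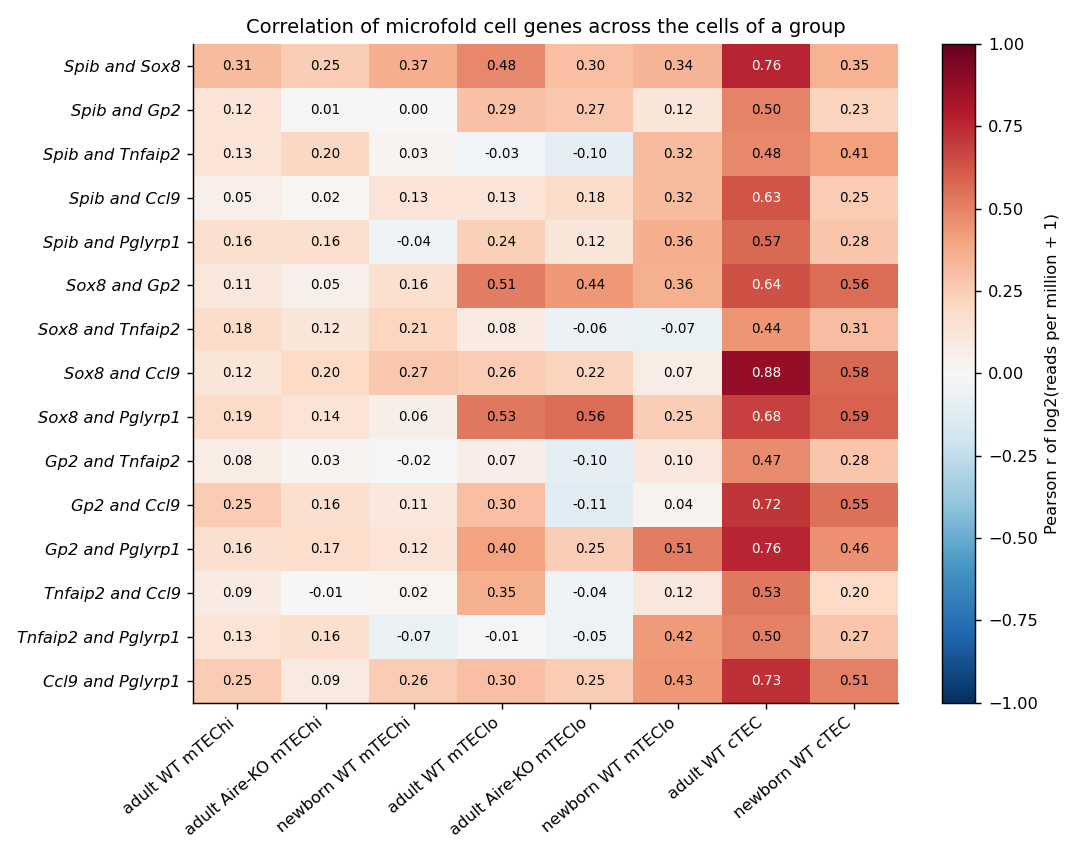
Pearson r of log2(CPM + 1) for the 15 pairs of genes (rows) across the cells of each group (columns), on a colour scale from -1 to 1. Adult cTEC is the darkest column with 0.44 to 0.88, and the Spib and Sox8 row is above 0 in all 8 groups.

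Seen as shares, Sox8 was in a larger share of cells with Spib than of cells without it in all 8 groups. Its intervals overlapped in newborn mTEChi (7 cells without Spib), Aire-KO mTEClo and newborn cTEC. In WT adult mTEChi it was in 26.9% of cells with Spib (23.2 to 30.7) and 9.26% of those without (3.08 to 20.3), in Aire-KO mTEChi in 32.3% and 8.00%, and in WT adult mTEClo in 19.2% and 1.67%. In newborn mTEClo it was in 11 of 69 cells with Spib and 0 of 55 without. In adult cTEC all 7 Sox8 cells were among the 19 with Spib, and in newborn cTEC all 7 were among the 93. Ccl9, by contrast, was in 31.3% of WT adult mTEChi cells with Spib and 37.0% of those without, with overlapping intervals. Tnfaip2 was in 71.6% and 64.8% there and in 72.9% and 44% in Aire-KO mTEChi. In Aire-KO mTEClo, Sox8 was in 13.0% and 2.56%, Ccl9 in 11.3% and 0% and Gp2 in 9.57% and 0%.

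Genes whose level ran most like a member were ranked over the 620 WT adult mTEChi cells among 18260 protein-coding genes. For Spib they were Pold1 (r = 0.51), Rap1gap (0.50), Cd40 (0.49), Actn3, Myh11, Gja4, Vim, Tmem176b, Tfdp1 and Slc4a8 (0.48 to 0.45), and in newborn mTEChi cells, not used for the ranking, these had 0.28 to 0.68. For Sox8 they were Pold1 (0.34), D430019H16Rik, Chst3, Slc2a6 and Lmf1. For Gp2 they were Umod (0.43), Reg3g, Ccl6, Mmp7 and C4bp, which include antimicrobial genes of the gut. For Ccl9 they were Ccl6 (0.51), Bcl2a1b, Bcl2a1a, C4bp and Ccl20 (0.41), with 0.47 and 0.38 for Ccl6 and Ccl20 in newborns. For Pglyrp1 they were Tspan8 (0.31), Wfdc17, Reg3g, Cybb and Mmp23, and for Tnfaip2 Tmprss4 (0.39), Vdr, Nod2, Rin3 and Plxnd1.

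The leading genes of 3 members were their neighbours on the chromosome. Pold1, the catalytic subunit of DNA polymerase delta, ends 0.675 kb upstream of Spib on the same strand, so the window printed above lies between them. Umod lies 3.426 kb upstream of Gp2 and Ccl6 lies 9.246 kb upstream of Ccl9, both on the same strand, and Lmf1, the fifth gene for Sox8, lies 8.399 kb from it on the opposite strand. None shares exonic bases with its neighbour. The r of Spib with Pold1 was 0.56 in Aire-KO mTEChi and 0.62 in newborn mTEChi but 0.09 in WT adult mTEClo, -0.11 in newborn mTEClo and 0.33 in adult cTEC, while that of Ccl9 with Ccl6 was 0.60 in WT adult mTEClo and 0.88 in adult cTEC. In WT adult mTEChi, Mybpc2 on the other side of Spib (at 1.337 kb) had an r of 0.28 with it and Nr1h2, beyond Pold1, had -0.17. Whether reads that run from Pold1 into Spib contribute was not tested.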

How the data were processed

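RamDA-seq counts were analysed for FACS-sorted TECs, with 2148 deposited samples that are runs of single cells (168 cells had 2 runs, and how these were combined is not given in the sources used here). The authors trimmed reads with fastp 0.20.0, aligned them to mm10 with STAR 2.7.3a, filtered with SAMtools 1.9, removed duplicates with Picard 2.21.1 and deposited raw counts per gene from HTSeq 0.11.2, unstranded, keeping cells with more than 200000 reads. A second deposited table of normalized values was not used. Symbols and exon lengths came from GENCODE M21. Depth is given with the results. Counts were summed over cells of 1 group, age and sex (13 pools, 11 of mTECs) and tested with edgeR 4.0.16 (quasi-likelihood, TMM, filterByExpr, 39971 genes) in R 4.3.3. DESeq2 1.42.0, limma 3.58.1 on mean log2(CPM + 1), batches as units, equal-depth cells, other filters and leaving out each pool were alternatives. Code was tested on simulated data. Shares used cells thinned to 200000 reads with exact intervals from scipy 1.17.1. Named genes were the members and fixed lists, plus the genes most correlated with a member (10 for Spib, 5 for each other) among protein-coding genes with 5 or more reads in 5 or more cells. The members and lists were chosen with earlier results of these data known. The thresholds of 20 reads and of all 6 members were chosen after seeing the data. One listed marker is not reported here, and its list's sums and counts leave it out.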

Additional observations from a re-analysis of the deposited data

Results flagged for a closer look

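Within a group, 42 sets of values, CPM over pools or shares of cells over experimental batches, were examined for a value far from the others. In all 2 were found, both among shares over batches, where chance would flag about 1 set in 20. The share of cells with Gp2 was 29.7% in the single batch of 5-week WT adult mTEClo, the highest among the batches of that group. The share of cells with Ccl9 was 17.2% in batch 19 of newborn mTEClo, the highest among the 5 newborn mTEClo batches.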

How the results depend on the processing

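No paired analysis was possible because the numbers in the labels count cells and do not tie samples of different groups together. Newborn cells of all 3 gates share experimental batches, but no comparison sets newborn gates against each other, and the block named below is for age and sex. Between adult WT mTEChi and mTEClo, 1 member was called, against 2 by limma (Tnfaip2 and Pglyrp1), 0 with batches as units, and 0 to 1 on leaving out 1 pool. In newborn against adult mTEClo 0 members were called, and 2 with batches as units, which may share mice within a pool. Of WT adult mTEChi cells, 35% held at least 4 members at 2 thinned reads. This was 55.5% at 1 read, 16% at 5 reads, 73.5% and 40.3% at 1 and 5 reads without thinning, 71.5% for 3 or more members, 11.6% for 5 or more, 1.77% for all 6 and 0.968% for all 6 at 20 reads, the last 2 chosen after seeing the data. Directions of uncalled values turned as follows. By limma the log2 value was -0.85 for Gp2 in Aire-KO mTEChi, 0.56 for Tnfaip2 in Aire-KO mTEClo, 0.06 for Pglyrp1 in the difference of the Aire-KO effects, 0.01 for Sox8 between gates, -0.02 for Sox8 in newborn mTEChi and 1.04 for Tnfaip2 in newborn mTEClo. With all 13 pools it was 0.14, 0.04 and 0.06 for Tnfaip2, Ccl9 and Pglyrp1 in the difference of effects and -0.03 for Spib between gates. With no filter it was 0.08 for Tnfaip2, and with cells at equal depth 0.15 for Pglyrp1, both in the difference of effects, and -1.00e-04 for Spib between gates. With a block for the pools' age and sex it was -0.27, -1.23 and -0.07 for Spib, Ccl9 and Pglyrp1 between gates. With batches as units it was 0.05 for Tnfaip2 in newborn mTEChi and 0.15 for Pglyrp1 in newborn mTEClo. Leaving out 1 pool gave -0.54 to 0.06 for Sox8 in Aire-KO mTEChi. For the difference of effects it gave -0.06 to 0.53 for Spib, -0.58 to 0.25 for Tnfaip2, -1.39 to 0.28 for Ccl9 and -0.65 to 0.28 for Pglyrp1. Between gates it gave -0.35 to 0.24 for Spib and -0.18 to 1.44 for Ccl9. In newborn mTEClo it gave -0.62 to 0.09 for Tnfaip2, -1.48 to 0.14 for Ccl9 and -0.62 to 0.32 for Pglyrp1. The cause of these changes was not tested. Over the members' values under all alternatives, 42 changed direction in this way, 4 gained and 7 lost a call. Over all genes, 11.7% were called between gates, against 4.70% to 6.69% without any 1 of the mTEChi pools of 4 (both sexes) or 6 weeks or the mTEClo pools of 4 or 5 weeks, 9.97% and 13.9% without the 8-week mTEClo or 5-week mTEChi pool, 26.7% with DESeq2, 7.66% with limma, 34.3% with batches and 2.79% with the block. In the 5 other comparisons edgeR called 0 genes, against 0.108% to 5.73% with DESeq2, 0.0704% to 14.0% with batches, 0% to 3.06% with limma, 0% to 0.199% with equal-depth cells and 0% to 1.34% without 1 pool (the highest for newborn mTEClo without the 8-week pool), and no filter and all 13 pools called 1 gene each, in Aire-KO mTEClo. RLE size factors moved the median of all genes between gates from 0.30 to 0.40. Each Aire-KO and newborn group is 1 pool, assumed to vary like the WT pools. Depth limits shares of genes with few reads per cell.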
